A study of Ovis aries with 6 samples.

Results

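TNNC2 and MYL11, 2 genes of the contractile apparatus of fast skeletal muscle fibres, were followed in the dorsal skin of newborn Hu sheep. They were found through the RefSeq accessions of the non-control probes, which gave 2 probes for TNNC2 and 1 for MYL11, or 2 of the 500 genes that could be named in this way. MYL11 is the current symbol of the gene also written MYLPF. The skin came from 3 large wave lambs and 3 small wave lambs, named for the pattern of their coat and all of the Hu breed, at a labelled age of 2 days and untreated as far as the labels say. The lambs had a common sire, and 1 large wave and 1 small wave lamb made a pair with a common dam. Each lamb was measured on 1 one-colour array, and all 6 arrays lay on 1 slide. How deep the skin was cut, and whether muscle beneath it was taken along, is not stated in the labels.

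In a striated muscle fibre, contraction starts when calcium binds to troponin C, which moves the troponin and tropomyosin complex on the actin filament and lets the myosin heads pull. TNNC2 encodes the troponin C of fast fibres. MYL11 encodes the regulatory light chain that sits on the neck of the fast myosin heavy chain. Skin itself holds smooth muscle in the arrector pili and in vessel walls, while skeletal muscle in the trunk of many mammals lies below the dermis as the panniculus carnosus and the body wall. Transcripts of fast fibres in a skin sample are therefore read here as a sign of skeletal muscle in the piece of tissue. Whether the signals of these arrays came from skeletal muscle was not tested. In bulk tissue, fewer muscle cells and less of the transcript per cell cannot be told apart.

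MYL11 was measured clearly and TNNC2 only just. The MYL11 probe was well above background on 6 of 6 arrays, as Feature Extraction, the scanner software, marks it. Its processed signal, which is the spot brightness after background subtraction, was 196, 77.5 and 158 in large wave replicates 1 to 3, against 78.6, 56.1 and 24.0 in small wave replicates 1 to 3. Before scaling the lowest large wave array lay just under the highest small wave array, so that the groups touched. The error that the scanner software gives for these signals was between 10.03 and 15.3% of the signal.

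Each TNNC2 probe was well above background on 5 of 6 arrays, and the array that failed was not the same. The brighter probe, A_70_P029962, had processed signals of 19.4, 7.71 and 12.3 in large wave replicates 1 to 3, against 25.0, 17.3 and 14.5 in small wave replicates 1 to 3. Large wave replicate 2 was the array not well above background, and the groups overlapped. The second probe, A_70_P029961, had 14.6, 11.8 and 11.0 in the large wave arrays, against 18.8, 19.8 and 3.21 in the small wave arrays. Here small wave replicate 3 was not well above background, with a signal of 3.21 and an error of 3.16. Apart from that array, the error of the TNNC2 signals was between 11.96 and 23.8% of the signal. The 77 negative control spots, which have no target in the sample, had median signals of 1.59 to 2.21 in large wave arrays and of 1.66 to 2.49 in small wave arrays. Their highest signals reached 10.1 and 9.69 in small wave replicates 2 and 3, and were at most 3.75 in large wave arrays. Every TNNC2 signal but that of the second probe in small wave replicate 3 was thus above the highest negative control of its array.

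**Figure D1:**
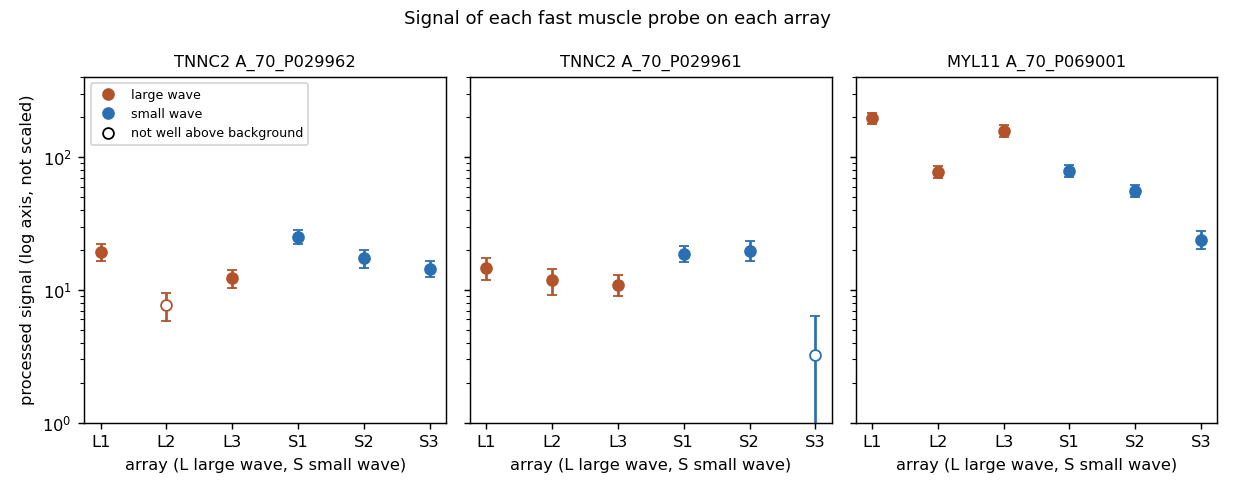
Processed signal of the 2 TNNC2 probes and the MYL11 probe on each array, on a log axis and without scaling between arrays; L1 to L3 are large wave replicates, S1 to S3 small wave replicates, and bars are the scanner software's error (the lower bar of TNNC2 A_70_P029961 in S3 runs off the axis). MYL11 lies between 24.0 and 196, the TNNC2 probes between 3.21 and 25.0, and open points are the 2 values not well above background.

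The arrays differed in brightness, which unscaled signals carry with them. The 75th percentile of the signal was 392, 205 and 249 in large wave replicates 1 to 3, against 285, 152 and 94.7 in small wave replicates 1 to 3, and the share of spots well above background ran from 51.4 to 70.7%. The spike-in controls did not share this order: their median signal was 543 to 701 in large wave and 633 to 783 in small wave arrays. Signals were therefore compared as log2 values minus the log2 75th percentile of their array, called scaled signals here.

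The question put by the design is whether skin of large wave lambs differs from skin of small wave lambs, and in scaled signals the 2 fast muscle genes leaned in opposite directions without passing the test. The scaled signal of MYL11 was -0.997, -1.40 and -0.65 in large wave replicates 1 to 3, against -1.86, -1.44 and -1.98 in small wave replicates 1 to 3. All large wave values lay above all small wave values, but replicates 2 of the groups were only 0.040 apart. MYL11 averaged -1.02 ± 0.37 in skin of large wave lambs and -1.76 ± 0.28 in skin of small wave lambs (SD, n = 3 each), a difference of 0.74 ± 0.37 (SE, 95% confidence interval -0.12 to 1.602) or 1.67-fold. The adjusted p of limma's moderated test, adjusted by the Benjamini-Hochberg method across the 10051 probes in the fit, was 0.777.

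The scaled signal of TNNC2 at its brighter probe was -4.33, -4.73 and -4.35 in large wave replicates 1 to 3, against -3.51, -3.14 and -2.71 in small wave replicates 1 to 3. All large wave values lay below all small wave values, but that of large wave replicate 2 was not well above background. It has no measured place in the order, and the large wave mean includes it. TNNC2 averaged -4.47 ± 0.23 over the large wave lambs and -3.12 ± 0.40 over the small wave lambs (SD, n = 3 each), a difference of -1.35 ± 0.43 (SE, 95% confidence interval -2.35 to -0.35, unadjusted). This corresponds to 2.55-fold, with adjusted p = 0.777 in limma. The second TNNC2 probe, A_70_P029961, had scaled signals of -4.74, -4.11 and -4.50 in large wave arrays, against -3.92, -2.94 and -4.88 in small wave arrays. The 2 measured small wave values lay above all large wave values, while that of replicate 3 was not well above background and has no place in the order. The difference at this probe was -0.54 ± 0.58 (SE, 95% confidence interval -1.88 to 0.81, adjusted p = 0.803 in limma). The second probe averaged -4.45 over large wave and -3.92 over small wave lambs, the latter with the array not well above background. A_70_P029962 was thus the brighter probe, and the one to represent TNNC2, only through its small wave values.

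Neither gene was among probes called, because no probe was: 0 of 10051 probes passed the adjusted threshold of 0.05 in limma (0%), and 384 had an unadjusted p under 0.05. At that unadjusted level 1.54% of probes were higher and 2.28% lower in large wave arrays. The brighter TNNC2 probe was among the lower ones, and MYL11 and the second TNNC2 probe were in neither share. Groups without overlap were not particular to these genes. Of all ways to split 6 arrays into 3 and 3, a share of 0.1 leaves no overlap, both directions together. Of the 9224 probes measured on every array, 4.87% had every large wave array above every small wave array, as MYL11 had, and 4.89% the reverse, as the brighter TNNC2 probe had. An exact two-sided permutation test over the 6 arrays gave p = 0.1 for MYL11 and for the brighter TNNC2 probe, which is the smallest p that 3 against 3 arrays allow, and p = 0.5 for the second TNNC2 probe.

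**Figure D2:**
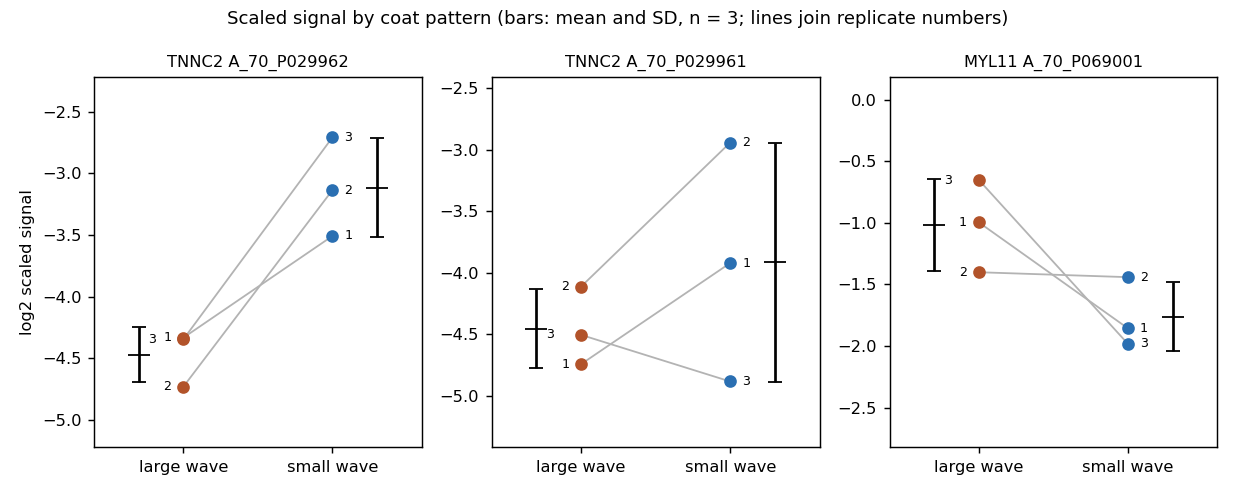
Scaled log2 signal of each probe in large wave and small wave skin; points are arrays with their replicate number, grey lines join same-numbered lambs, and black bars are the mean and SD of 3 arrays. The panels span the same log2 range. The groups are apart for TNNC2 A_70_P029962 and MYL11 A_70_P069001, in opposite directions, and overlap for TNNC2 A_70_P029961. Not well above background were large wave replicate 2 at TNNC2 A_70_P029962 and small wave replicate 3 at TNNC2 A_70_P029961.

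Differences were also taken within same-numbered lambs. Large wave minus small wave, the scaled MYL11 signal differed by 0.86, 0.040 and 1.33 in pairs 1 to 3, and the brighter TNNC2 probe by -0.83, -1.595 and -1.64. Each thus had its direction in 3 of 3 pairs, which any pairing must give where the groups do not overlap. Pair 2 of the brighter TNNC2 probe rests on large wave replicate 2, which was not well above background. Only pairs 1 and 3 of this probe had both arrays well above background. With 3 pairs an exact sign-flip permutation test cannot give a p below 0.25. The second TNNC2 probe had -0.82 and -1.17 in pairs 1 and 2. Its value of 0.38 in pair 3 rests on an array not well above background, so that its sign was not measured.

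Repeated spots show how precise a single spot is. Some probes were printed 5 times on each array, and their spread measures the spot itself with the lamb held constant. In 53 sets of 5 spots whose mean signal lay in the range of the brighter TNNC2 probe, 7.71 to 25.0, the SD of the log2 signal over the spots had a median of 0.40 and a 90th percentile of 1.05. The SD of the scaled TNNC2 signal at this probe was 0.23 over large wave lambs and 0.40 over small wave lambs. In the range of the second TNNC2 probe, 3.21 to 19.8, the median SD over 116 sets was 0.62, beside 0.32 over large wave lambs and 0.97 over small wave lambs. In the range of MYL11, 24.0 to 196, the median SD over 70 sets was 0.34, beside 0.37 over large wave lambs and 0.28 over small wave lambs. TNNC2 and MYL11 had 1 spot per probe and array, so no repeat of their own.

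The size of both differences depended on the scaling. Without scaling, the median of all probes tested was 0.74 higher in large wave arrays on the log2 scale, and with the spike-in controls as the scale it was 0.99 higher. Relative to that median, the MYL11 difference was 0.76 without scaling and 0.76 with spike-ins, and the TNNC2 difference -1.34 and -1.33. These relative values are alike by construction, since such a scaling shifts all probes of an array by 1 constant. Taken as they stand, the differences were 1.504 and 1.75 for MYL11 and -0.59 and -0.34 for TNNC2, and the TNNC2 groups overlapped in both settings, the MYL11 groups only without scaling. The difference at the second TNNC2 probe turned to 0.22 and 0.47. With normexp background correction, an offset of 50 and quantile normalization, MYL11 had 0.40 and TNNC2 -0.30. An offset of this size makes differences of dim probes smaller by construction.

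**Figure D3:**
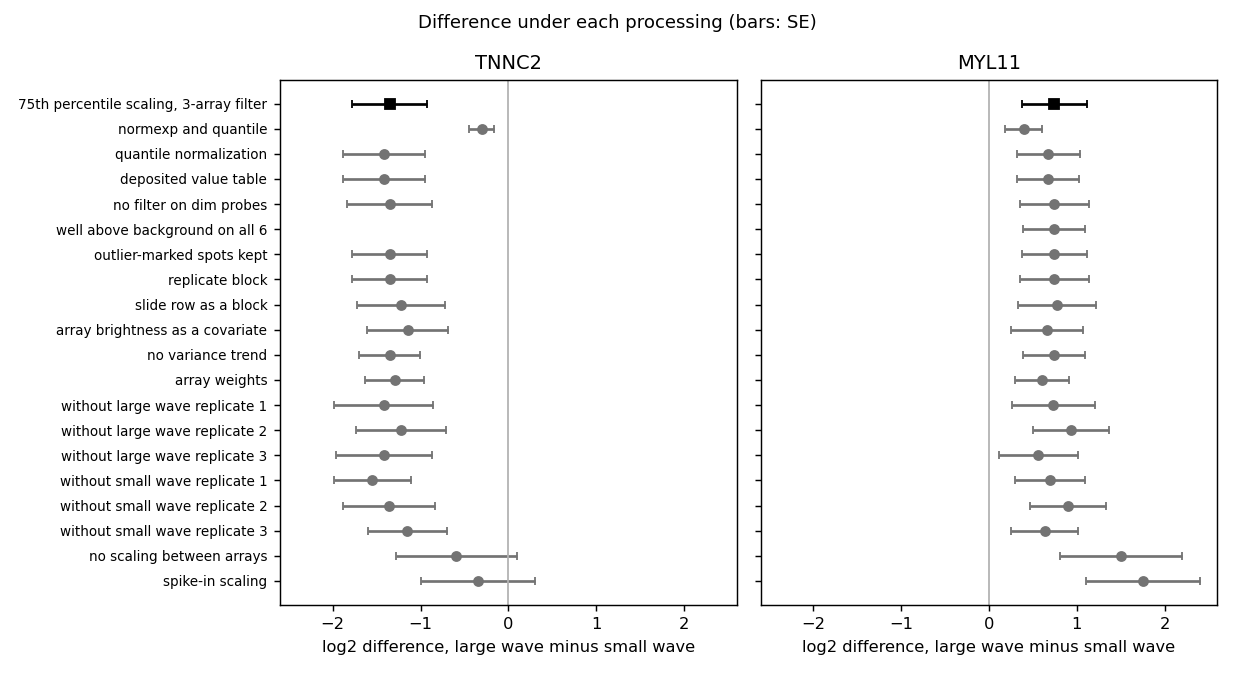
Log2 difference, large wave minus small wave, of TNNC2 (A_70_P029962) and MYL11 under each processing, with its SE. TNNC2 runs from -1.55 to -0.30 and MYL11 from 0.40 to 1.75; the TNNC2 probe has no value under the filter that asks for all 6 arrays, because large wave replicate 2 was not well above background.

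TNNC2 and MYL11 did not vary together over the arrays in a way that the data can establish. In scaled signals Pearson's r between MYL11 and the brighter TNNC2 probe was -0.71 over 6 arrays (exact permutation p = 0.129, adjusted p = 0.463 over the 12 relations computed), and Spearman's rho was -0.77 (exact permutation p = 0.103, adjusted p = 0.617). The 2 arrays farthest from the TNNC2 median were small wave replicate 3 and replicate 2 of the large wave lambs, and r was -0.80 over the other 4. In deviations from the group means, which take the opposite group differences out, r was 0.21. Each group by itself has too few arrays for a correlation. Between MYL11 and the second TNNC2 probe r was -0.13 (exact permutation p = 0.803) and rho -0.029 (exact permutation p = 1), and r was -0.85 without small wave replicates 2 and 3.

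Without scaling the relation lost its sign. Between MYL11 and the brighter TNNC2 probe r was then 0.062 (exact permutation p = 0.925) and rho 0.26 (exact permutation p = 0.658), with r at 0.14 when replicate 2 of the large wave and replicate 1 of the small wave lambs were left out. Inside each coat pattern both unscaled genes then had the arrays in the same order, with large wave replicate 2 lowest and replicate 1 highest, and small wave replicate 3 lowest and replicate 1 highest. Array brightness had this order too. The unscaled MYL11 signal followed brightness at r = 0.93 (exact permutation p = 0.0125, adjusted p = 0.15) and rho = 0.94 (exact permutation p = 0.0167, adjusted p = 0.2), and r was 0.61 once replicate 1 of the large wave lambs and replicate 3 of the small wave lambs were left out. The unscaled TNNC2 signal followed it less closely, at r = 0.27 (exact permutation p = 0.611) and rho = 0.49 (exact permutation p = 0.356). After scaling, r with brightness was -0.70 for TNNC2 (exact permutation p = 0.122) and 0.57 for MYL11 (exact permutation p = 0.233). With brightness as a covariate the differences were -1.15 ± 0.46 for TNNC2 and 0.66 ± 0.41 for MYL11 (SE, adjusted p = 0.999 for both in limma). Scaled signals of different probes share the 75th percentile that was subtracted, and unscaled ones share the brightness of the array.

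**Figure D4:**
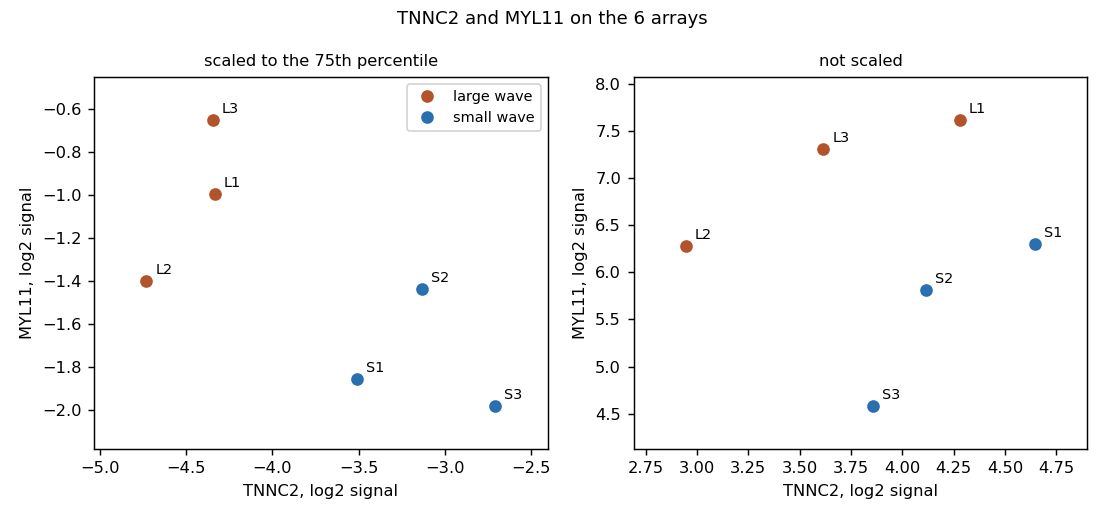
Log2 signal of MYL11 against that of TNNC2 (A_70_P029962) on the 6 arrays, scaled to the 75th percentile of each array (left) and not scaled (right). On the left, r is -0.71 with large wave arrays at the upper left; on the right, r is 0.062, and within each coat pattern both genes have the arrays in the same order.

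The 2 probes of TNNC2 did not track each other either. Their scaled signals had r = 0.19 (exact permutation p = 0.751) and rho = -0.086 (exact permutation p = 0.919) over 6 arrays, although both carry the same RefSeq accession. Over the 4 arrays on which both probes were well above background, r was 0.95. Unscaled, r was 0.31 (exact permutation p = 0.524) and rho 0.60 (exact permutation p = 0.242). The scaled likeness of the TNNC2 probes thus changed when the 2 arrays at the detection limit were left out. Whether leaving out other arrays would change it as much was not tested, and 4 arrays are few for a correlation.

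Other skeletal muscle genes were mostly at or below the detection limit. Of 59 genes listed for skeletal muscle, 8 could be named on the array, and MYL11 was the only 1 of these well above background on all 6 arrays. MB, or myoglobin, the oxygen store of muscle, was not well above background on any array at either of its 2 probes, with signals of 2.01 to 2.83 in large wave arrays and 1.57 to 3.36 in small wave arrays. Nor were MYOG, the myogenin factor that drives muscle cells to differentiate, and MSTN, the myostatin signal that limits muscle growth. MYOD1, a factor that commits cells to the muscle lineage, passed the background mark at both of its probes on replicates 1 of each group, the 2 brightest arrays, and on no other.

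PYGM, the glycogen phosphorylase of muscle, was read by 1 probe in 5 spots and passed the background mark in at least 1 spot on all 3 large wave arrays and on 2 of the small wave arrays. Its mean signal was 10.8 to 14.7 in large wave arrays, against 7.02 to 22.1 in small wave arrays, which overlap. The difference in scaled signal was -0.87 ± 0.61 (SE, adjusted p = 0.777 in limma). CAPN3, a calpain protease of skeletal muscle, passed the mark at its better probe on 2 of the large wave arrays and on 1 of the small wave arrays, with a difference of 0.096 ± 0.52 (SE, adjusted p = 0.968 in limma). Of the 4 skeletal muscle genes that could be tested, TNNC2, MYL11, PYGM and CAPN3, 2 were higher and 2 lower in skin of large wave lambs, and 0 passed the adjusted threshold. Their median difference was -0.39, beside -0.020 over all probes tested. No gene of the slow skeletal and cardiac list could be named on the array, so fast fibres were not set against slow ones.

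**Figure D5:**
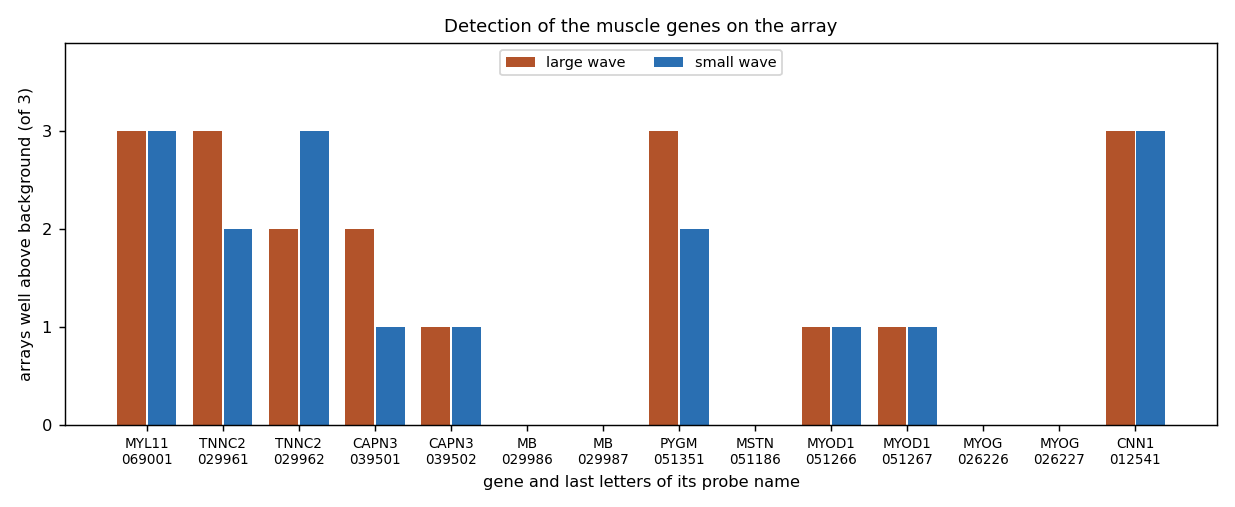
Number of arrays, of 3 in each coat pattern, on which each probe of the named muscle genes was well above background. MYL11 and the smooth muscle gene CNN1 reach 3 in both patterns, while MB, MYOG and MSTN stay at 0.

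Smooth muscle gave a different readout. CNN1, the calponin of smooth muscle, was the only gene of its list of 10 that could be named, and it was well above background on 6 of 6 arrays. Its signal was 3070 to 3723 in large wave arrays, against 1231 to 4549 in small wave arrays. The scaled difference was -0.42 ± 0.61 (SE, adjusted p = 0.855 in limma), and its sign changed to 0.48 after normexp correction and to 0.013 in the authors' deposited table. The label of dorsal skin was borne out by markers of skin: all 4 hair shaft genes and all 4 inner root sheath genes that could be named, the epidermal gene SFN and the dermal matrix gene DCN were well above background on all 6 arrays. Some markers of skin cell types other than muscle also had sizeable differences, in both directions. Of 18 that could be tested, 6 were higher and 12 lower in large wave lambs, 0 passed, and their median difference was -0.43. Over all 10051 probes tested, 4894 were higher and 5157 lower, with a median of -0.020. AQP1, a water channel of vessel walls, had -2.29 and -1.62 at its 2 probes, which is larger than TNNC2 had. Smaller than that of TNNC2 were SFN at -1.12 (0.12 after normexp correction) and LPL, the lipoprotein lipase of fat cells, at -1.10. The other LPL probe was well above background on 0 arrays. In the other direction, the inner root sheath gene PADI3 had 1.04 and 1.16 at its 2 probes. Of the 4 inner root sheath genes tested, PADI3 was the only 1 that was higher and 3 were lower, with a median difference of -0.31. The part of these skin markers in the TNNC2 difference was not tested.

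Named genes with the pattern most like each member were found by Pearson's r of scaled signals over the 6 arrays, among genes well above background on all of them, and are given as a description. For TNNC2 the highest of 223 genes were CCR10, a chemokine receptor, at r = 0.99, MADCAM1, an adhesion molecule of vessel walls, at 0.97 and GGCX, which carboxylates vitamin K dependent proteins, at 0.97. The lowest was SHMT1, an enzyme of folate metabolism, at -0.97. Unscaled, these were 0.91 for CCR10, 0.84 for MADCAM1, 0.45 for GGCX and 0.039 for SHMT1. The scaled signals also went with array brightness, at r = -0.71 for CCR10, -0.63 for MADCAM1, -0.74 for GGCX and 0.85 for SHMT1. TNNC2 itself had -0.70, and the part of brightness in these likenesses was not tested. CCR10 and MADCAM1 had signals of 8.91 to 22.1 and of 8.94 to 24.2 over the 6 arrays, which is also a dim range.

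For MYL11 the highest of 222 genes were LPAR1, a receptor of lysophosphatidic acid, at r = 0.88, the potassium chloride cotransporter SLC12A4 at 0.79 and PADI3, an enzyme of the hair inner root sheath, at 0.78. RCAN1, which binds and regulates calcineurin, was lowest at -0.96. Unscaled, r was 0.98 for LPAR1, 0.97 for SLC12A4, 0.96 for PADI3 and 0.65 for RCAN1. With array brightness the scaled signals had r = 0.35 for LPAR1, 0.23 for SLC12A4, 0.80 for PADI3 and -0.66 for RCAN1, beside 0.57 for MYL11. MYL11 was among the genes compared with TNNC2 and not among its 3 most alike, while TNNC2, not well above background on every array, was not among those compared with MYL11.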

How the data were processed

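Per the file headers, the authors' intensity values were extracted with Agilent Feature Extraction 10.7.3.1, which subtracted the background and did not scale between arrays; the submitters' processing notes give version 10.7. RNA was amplified and labelled with Cy3, per the labels' protocols. A deposited table of log2 values, with a median of 4.95 in each array, entered as an alternative; its normalization is not stated, but it correlated across probes at 0.999992 or more with quantile-normalized log2 signals on each array.

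From the intensities, log2 processed signals minus each array's 75th percentile over 15208 non-control spots were computed. Spots marked as outliers were left out (none at TNNC2 or MYL11), spots of a probe were averaged, and 0 spots were saturated. Probes well above background, in at least 1 spot, on at least 3 of 6 arrays were kept, and the kept probe with the highest mean represents a gene. Of 786 RefSeq probes, 767 matched the RefSeq table of ARS-UI_Ramb_v3.0, used for names only. The files have no gene name or description column, so probes without a RefSeq accession are unnamed here.

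Large wave minus small wave was fitted with limma 3.58.1 (R 4.3.3, variance trend, no block) over 10051 probes and checked on simulated data. The number of arrays limits the precision. The labels number replicates 1 to 3 in each group and do not say that the number marks the shared dam. Deviations from group means correlated at 0.30, 0.18 and 0.21 between same-numbered lambs across probes, and the numbers were taken to pair them. Differently numbered lambs were not compared, so these values cannot show that the number marks the pair. The replicate block was therefore an alternative only. Replicates of a number share a slide column, so dam and column cannot be told apart. Genes named were the members, the listed muscle genes on the array and, for each member, the 3 most and 1 least alike. Members, lists and tests were chosen with earlier results of these data known.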

Additional observations from a re-analysis of the deposited data

How the results depend on the processing

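TNNC2 kept its lower and MYL11 its higher value in large wave skin under each of 19 alternatives, and neither passed in any. Adjusted p in limma ran from 0.176 to 0.999 for TNNC2 and from 0.280 to 0.999 for MYL11. The deposited table and quantile normalization, at -1.42 each for TNNC2, are nearly the same alternative. For TNNC2 the alternatives were run at its brighter probe, and the second probe entered them under the main scaling only. The difference at the second probe was 0.22 without scaling and 0.47 with spike-in scaling, so its sign was not kept. Leaving out each array gave -1.55 to -1.15 for TNNC2 and 0.56 to 0.94 for MYL11. The sign could not change in these, since the scaled groups did not overlap. Nor could it under another filter, with outlier-marked spots kept, with the replicate block or without the variance trend. Those settings leave the difference itself unchanged and alter only its test. With the replicate block the differences were -1.35 and 0.74 (adjusted p = 0.624 for both), and the block changed no call. The correlation of the genes was -0.87 to -0.53 with an array left out. It turned to 0.21 in deviations from the group means, which removes the opposite group differences, to 0.062 without scaling and to 0.12 with spike-in scaling; for the scalings the cause was not tested. Under no alternative fitted did any probe pass the adjusted threshold (0). Probes at an unadjusted p under 0.05 numbered 384, but 2175 with array weights, 1465 with spike-in scaling, 584 with the block, 254 with brightness as a covariate, 142 with the slide row as a block, 1765 when small wave replicate 1 was left out, 199 when small wave replicate 3 was, and 155 when large wave replicate 3 was. Normexp used median signals, since the files hold no mean spot signal. Absence of scaling and spike-in scaling were chosen after seeing the data. TNNC2 signals near the detection limit, on 1 spot each, limit what its difference can show.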
